A study of Homo sapiens with 6 samples.

Results

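The ISG12 family of small hydrophobic proteins was examined in HT1080 cells, an established human fibrosarcoma line. Its 4 human genes, IFI6, IFI27, IFI27L1 and IFI27L2, were taken by symbol from the 62710 Ensembl genes of the expression table. All 4 were found, and all 4 passed the filter on low values. RNA was sequenced from 3 untreated libraries and from 3 libraries of cells given 20 ng/mL IFNβ for 24 h, with no other agent or genetic change in either group. The labels and the cell culture methods of the study name human IFNβ for these cells, while the section on sequencing speaks of mouse IFNβ. The study describes its in vitro results in general as coming from independent biological replicates, but the labels do not say which cultures the libraries came from, so the p-values measure the spread between these libraries, which may be technical. Each library is a bulk culture of 1 tumour line, in which fewer cells expressing a gene and less of its RNA per cell cannot be told apart.

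Type I interferons bind the IFNAR1 and IFNAR2 receptor chains, and the kinases JAK1 and TYK2 then phosphorylate STAT proteins. STAT2 and IRF9 are parts of the ISGF3 complex, which binds the interferon-stimulated response element (ISRE) in the promoters of its target genes. IFI6 lies in the endoplasmic reticulum and mitochondria and is known for blocking flavivirus replication and for restraining mitochondrial apoptosis. IFI27, also called ISG12a, is a mitochondrial and nuclear membrane protein known for sensitising cells to apoptosis and for directing a viral protein to degradation. IFI27L1 and IFI27L2 are its less studied relatives.

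Values are FPKM, which are sequenced fragments scaled by gene length and library size. The number of fragments per library was between 22848104 and 32915500. Differences are log2 fold changes of log2(FPKM + 0.1) from limma, which understate the change of low genes. A gene was called differentially expressed where its Benjamini-Hochberg adjusted p was below 0.05 and its log2 fold change was 1 or more in either direction. By this rule 4.22% of the 20716 genes tested were called, 3.49% as higher after IFNβ and 0.739% as lower. All 8 mesenchymal markers, among them VIM and FN1, averaged at least 1 FPKM, while 0 of 5 epithelial, 0 of 5 leukocyte and 0 of 4 endothelial markers did. The summed mesenchymal level was between 1272 and 1329 FPKM without IFNβ and between 1290 and 1340 FPKM with it. The summed epithelial level went from between 0.256 and 0.445 to between 0.58 and 0.654 FPKM. The endothelial level went from between 0.268 and 0.421 to between 0.471 and 0.53 FPKM. Neither overlapped between the groups, which was also true, with IFNβ above untreated, of 22.3% of all genes tested. The leukocyte level was between 0.0282 and 0.156 and then between 0.0497 and 0.148 FPKM. The part of these markers in the results was not tested.

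The 4 genes lie at 2 loci, given here on GRCh38 from GENCODE release 29. IFI6 (ENSG00000126709) is on the minus strand at chr1:27666061-27672218. IFI27L1 (ENSG00000165948, chr14:94081282-94103846), IFI27 (ENSG00000165949, chr14:94104836-94116698) and IFI27L2 (ENSG00000119632, chr14:94127779-94130253) follow each other on chromosome 14. The first 2 of these are on the plus strand and IFI27L2 is on the minus strand. Only 990 bp separate the end of IFI27L1 from the start of IFI27, and 11.1 kb separate IFI27 from IFI27L2. No exon of the 4 genes overlapped an exon of another gene in this annotation. No stretch of 50 bases was shared between transcripts of any pair of the 4 genes. The coding sequences of IFI27 and IFI27L1 were identical at 78.2% of aligned bases, those of IFI27 and IFI27L2 at 82.3%, and those of IFI27L1 and IFI27L2 at 81.2%. IFI6 was the most distant, with 62.3% to 63.1% identity to the other members.

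The promoter sequences are shown because the ISRE is an element that IFNβ signalling acts through. Whether it has a part in the different responses of the genes was not tested. The 250 bases upstream of each RefSeq start site (GRCh38.p14) were searched on both strands for an ISRE core, which is GAAA, any 2 bases and GAAA again. The stretches below run from 173 to 84 bases upstream of the start, 5′ to 3′ on the strand of the gene, with each match in capitals. They cover chr1:27672276-27672365 on the minus strand for IFI6, chr14:94110563-94110652 on the plus strand for IFI27 and chr14:94129688-94129777 on the minus strand for IFI27L2. The IFI27 stretch lies inside the gene as release 29 draws it, upstream of the shorter transcripts and outside the exons. IFI27L2 is shown as a member with no match, and its stretch also lies inside its gene in release 29.
IFI6: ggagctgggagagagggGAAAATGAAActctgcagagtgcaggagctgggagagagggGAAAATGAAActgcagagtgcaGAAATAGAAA
IFI27: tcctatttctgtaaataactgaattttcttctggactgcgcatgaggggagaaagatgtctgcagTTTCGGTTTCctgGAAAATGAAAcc
IFI27L2: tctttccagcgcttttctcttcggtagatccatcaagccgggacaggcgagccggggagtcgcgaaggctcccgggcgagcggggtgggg

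IFI6 held 3 matches, at 156 to 147, 115 to 106 and 93 to 84 bases upstream. The first 2 each lie in a copy of the same 29 bases, ggagctgggagagaggggaaaatgaaact, and an exact repeat of at least that length was present in 0.963% of the promoters of the 27305 genes in the RefSeq table. IFI27 held 2 matches, of which the one at 108 to 99 bases reads on the opposite strand, as GAAACCGAAA, and the one at 95 to 86 bases reads on the strand of the gene. A GAS core, TTCNNNGAA, the element bound by STAT dimers, lay between them in IFI27 at 101 to 93 bases and overlapped both. A second RefSeq start of IFI27 gave a window that held the same matches. The windows of IFI27L1 and IFI27L2 held 0 matches to either motif, and that of IFI6 held 0 GAS matches.

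Among all 27305 genes, 3.71% had at least 1 ISRE match in the same window, 0.275% had at least 2 and 0.0293% had at least 3. The GAS core was present in 8.09%. In a list of 36 interferon-stimulated genes, 29 had a window and 21 of these (72.4%) had an ISRE match, with 10 holding 1 match, 9 holding 2 and 2 holding at least 3. Those last 2 were HERC5, an ISG15 ligase, and IFIH1, the RNA sensor MDA5, each with 3 matches as in IFI6. The promoter windows also differed in base composition. GC content was 44.4% and 48% in the windows of IFI27, 53.6% in IFI6, 64% in IFI27L2 and 64.8% in IFI27L1. A match describes the letters only, and the absence of a match says only that these letters are not in this window.

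IFI6 rose from a low level to among the most abundant transcripts of the cells. Its level was 3.41, 4.64 and 4.12 FPKM in the untreated libraries and 1127, 1217 and 1179 FPKM in the IFNβ-treated libraries. Every treated library was far above every untreated one, and the means were 4.06 ± 0.618 and 1174 ± 45.1 FPKM (SD, n = 3 per group), a ratio of 289. The log2 fold change was 8.15 (SE 0.10, 95% interval 7.90 to 8.40, limma adjusted p = 5.5e-08). In fragments, the untreated libraries held 73, 129 and 127 from IFI6 and the treated libraries 32483, 28453 and 31895. By level, IFI6 moved from rank 7594 to rank 14 of the genes tested. It alone made up between 0.482% and 0.52% of all FPKM in the treated libraries.

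IFI27 showed a rise of the same order from a lower start. It stood at 0.613, 0.61 and 0.638 FPKM without IFNβ and at 112, 114 and 114 FPKM with it. The groups did not overlap, and the values within each group were close together. Means were 0.62 ± 0.0154 and 114 ± 1.19 FPKM (SD, n = 3 per group), a ratio of 183, with a log2 fold change of 7.30 (SE 0.028, 95% interval 7.24 to 7.37, limma adjusted p = 5.2e-10). The untreated level rests on 58, 75 and 87 fragments, against 14321, 11848 and 13660 after treatment. The untreated coefficient of variation was 2.48%, below the 11.8% that fragment counting alone gives, so the SE and interval understate the uncertainty. With a pseudocount of 0.01 the log2 fold change was 7.49, and with limma-voom on the fragments 7.50, both above that interval. IFI27 moved from rank 13272 to rank 242 by level.

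IFI27L1, the gene directly upstream of IFI27, rose by much less. The untreated libraries had 3.31, 2.23 and 2.75 FPKM and the treated libraries 5.11, 5.42 and 5.38 FPKM. The groups did not overlap, which was also true, with IFNβ above untreated, of 22.3% of all genes tested. Means were 2.76 ± 0.538 and 5.3 ± 0.166 FPKM (SD, n = 3 per group), a ratio of 1.92. The log2 fold change of 0.93 (SE 0.13, 95% interval 0.61 to 1.25) passed the test (limma adjusted p = 0.0024) but not the fold threshold, and the interval spans that threshold. Untreated replicate 1 decided this, since without it the log2 fold change was 1.07 and the gene was called.

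IFI27L2 gave no difference that passed the test. Its level was 4.62, 5.11 and 4.74 FPKM in untreated cells and 5.13, 5.9 and 4.84 FPKM after IFNβ. The groups overlapped, because the third treated library lay below the highest untreated one. Means were 4.82 ± 0.258 and 5.29 ± 0.547 FPKM (SD, n = 3 per group), and the log2 fold change was 0.13 (95% interval -0.068 to 0.32, limma adjusted p = 0.29). The interval leaves room for a rise of up to 0.32 on the log2 scale.

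**Figure D1:**
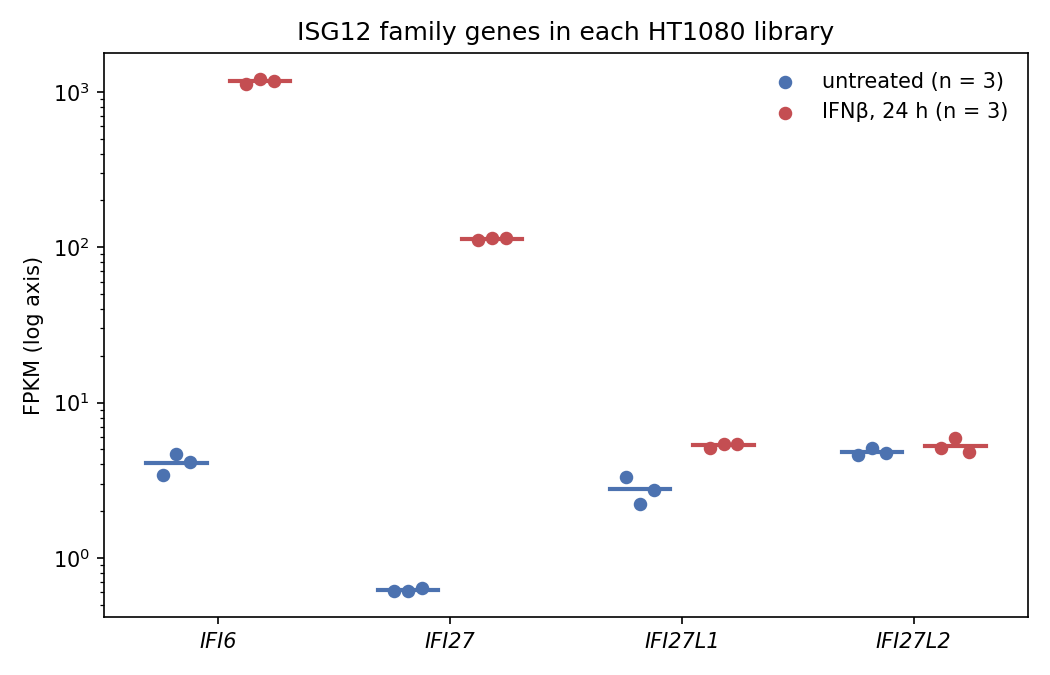
FPKM of the 4 ISG12 family genes in each HT1080 library, on a log axis; points are libraries (3 untreated in blue, 3 with IFNβ for 24 h in red) and bars are group means. IFI6 and IFI27 moved from means of 4.06 and 0.62 to 1174 and 114 FPKM, IFI27L1 from 2.76 to 5.3 FPKM, and the 2 groups of IFI27L2 overlapped.

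Of the 4 members, 2 were called higher and 0 lower, beside the 3.49% and 0.739% of all genes given above. Without the fold threshold 3 of the 4 had an adjusted p under 0.05 and a higher level, which was true of 15.2% of the genes tested. The groups did not overlap in these 3 members, as in 46.6% of all genes tested when either direction is counted. Ordered by log2 fold change, IFI6 was number 7, IFI27 number 13, IFI27L1 number 1355 and IFI27L2 number 7377 of 20716 genes. The 6 genes above IFI6 were BST2 (tetherin), RSAD2 (viperin), IFIT1, MX2, IFI44L and OAS2. Several of these had at most 8 fragments per untreated library, BST2, RSAD2, MX2 and IFI44L among them, so that their fold change depends on the pseudocount. With a pseudocount of 1, IFI6 ranked number 2 and IFI27 number 9, and with 0.01 they ranked number 16 and number 21. Among the 13778 genes with at least 20 fragments in every untreated library, IFI6 was number 3 and IFI27 number 7.

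**Figure D2:**
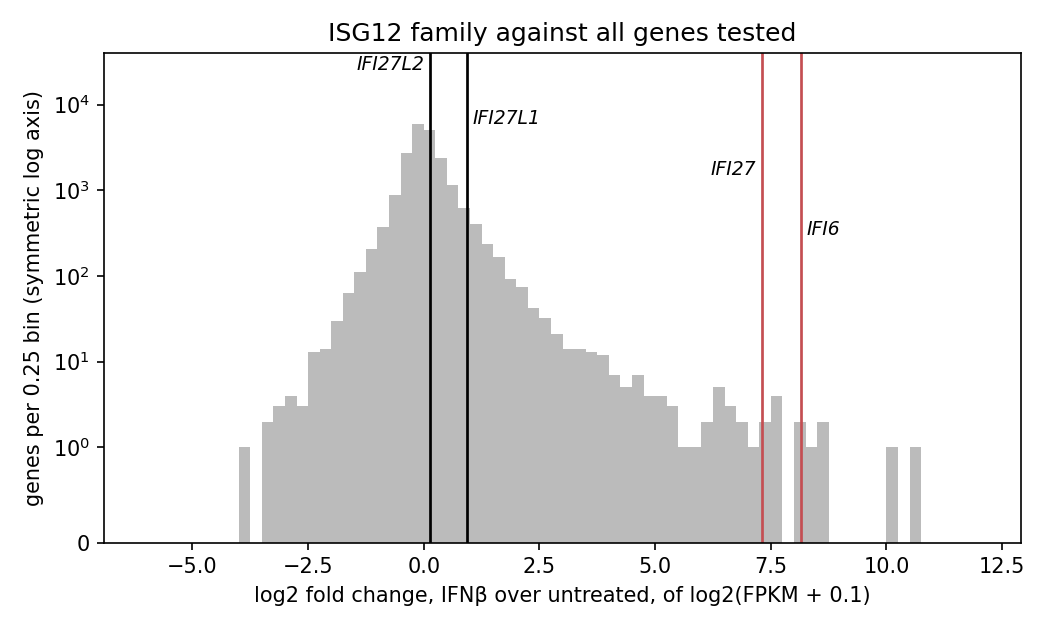
Distribution of the log2 fold change (IFNβ over untreated, of log2(FPKM + 0.1)) over all 20716 genes tested, as genes per bin on a symmetric log axis, with lines at the 4 members (red where called). IFI6 at 8.15 and IFI27 at 7.30 lie in the sparse right tail, IFI27L2 at 0.13 lies near the peak of the distribution, and IFI27L1 at 0.93, number 1355 of the genes by this value, lies on its right shoulder.

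The composition of the family changed with these rises, by amounts that depend on the gene lengths used. The summed level of the 4 genes was 11.9, 12.6 and 12.2 FPKM without IFNβ and 1249, 1343 and 1304 FPKM with it. With the lengths of the deposited table, IFI6 made up 28.6% to 36.9% of the untreated sum and 90.2% to 90.6% of the treated sum. With the median length of the principal protein-coding transcripts instead, its share was 11.6% to 16.2% before and 65.3% to 66.4% after. IFI27 went from between 4.84% and 5.21% to between 8.52% and 8.98% with the table's lengths, and from between 10.6% and 11.3% to between 31.8% and 33% with the principal lengths. The rest of the treated sum, IFI27L1 and IFI27L2 together, was small under both. With the table's lengths, the share of IFI27L2 was the largest of the 4 in each untreated library, at 38.6% to 40.6%, and lay between 0.371% and 0.439% after IFNβ. The share of IFI27L1 was 17.7% to 27.7% before and 0.404% to 0.412% after.

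In untreated cells the order of the mean levels with the table's lengths was IFI27L2, IFI6, IFI27L1 and IFI27, and the ranges of IFI27L2 and IFI6 met, at 4.62 and 4.64 FPKM. With the principal lengths IFI6 and IFI27L1 changed places. The lowest IFI27L2 value was then 14.5 FPKM and the highest IFI6 value 5.29 FPKM, with no overlap. IFI27 was below the other members in every untreated library under both lengths. After IFNβ the order was IFI6, IFI27, and then IFI27L1 and IFI27L2, whose means with the table's lengths, 5.3 and 5.29 FPKM, did not differ beyond their spread. With the principal lengths IFI27L1 was above IFI27L2 in each treated library, at 17.8, 18.9 and 18.7 against 16.1, 18.5 and 15.2 FPKM, though the ranges overlapped.

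IFI6 and IFI27 moved apart within the libraries. The log2 ratio of IFI6 to IFI27 was taken with 0.1 FPKM added to both levels. It was 2.30, 2.74 and 2.52 in untreated cells and 3.33, 3.41 and 3.37 after IFNβ, with no overlap. The means were 2.52 ± 0.22 and 3.37 ± 0.041 (SD, n = 3 per group), a difference of 0.85. An exact two-sided permutation test gave p = 0.10, the smallest p that 3 libraries against 3 can give. With a pseudocount of 1 the difference was 1.72, and with 0.01 it was 0.69, since the low untreated level of IFI27 is sensitive to this choice. With no pseudocount, IFI6 was at 5.57 to 7.62 times IFI27 in untreated and at 10 to 10.6 times in treated libraries.

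The level of one gene against another depends on the gene length used, and so, through the pseudocount, does the log2 fold change of a low gene. That of IFI27 was 7.30 as reported, 7.49 with a pseudocount of 0.01 and 7.50 with limma-voom on the fragments. Neither alternative changed the length alone, so the effect of length on this fold change was not measured. The table divided IFI27 fragments by a length of 4144 bp, whereas its principal protein-coding transcripts in release 29 had a median of 716 bp, a ratio of 5.79. The same ratio was 1.14 for IFI6 (936 and 822 bp), 3.48 for IFI27L1 (2356 and 677 bp) and 3.14 for IFI27L2 (1602 and 511 bp). On the principal transcript length, IFI6 was at 4.62 ± 0.704 FPKM without and 1337 ± 51.4 FPKM with IFNβ, and IFI27 at 3.59 ± 0.0891 and 657 ± 6.89 FPKM (SD, n = 3 per group). IFI27L1 was then at 9.61 ± 1.87 and 18.5 ± 0.576 FPKM, and IFI27L2 at 15.1 ± 0.807 and 16.6 ± 1.71 FPKM. After IFNβ the level of IFI6 was 10.3 ± 0.295 times that of IFI27 with the table's lengths, and 2.03 ± 0.0581 times with the principal lengths. In fragments without any length it was 2.33 times. IFI6 stood above IFI27 in each treated library under all 3 measures, but the size of the gap rests on the length.

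**Figure D3:**
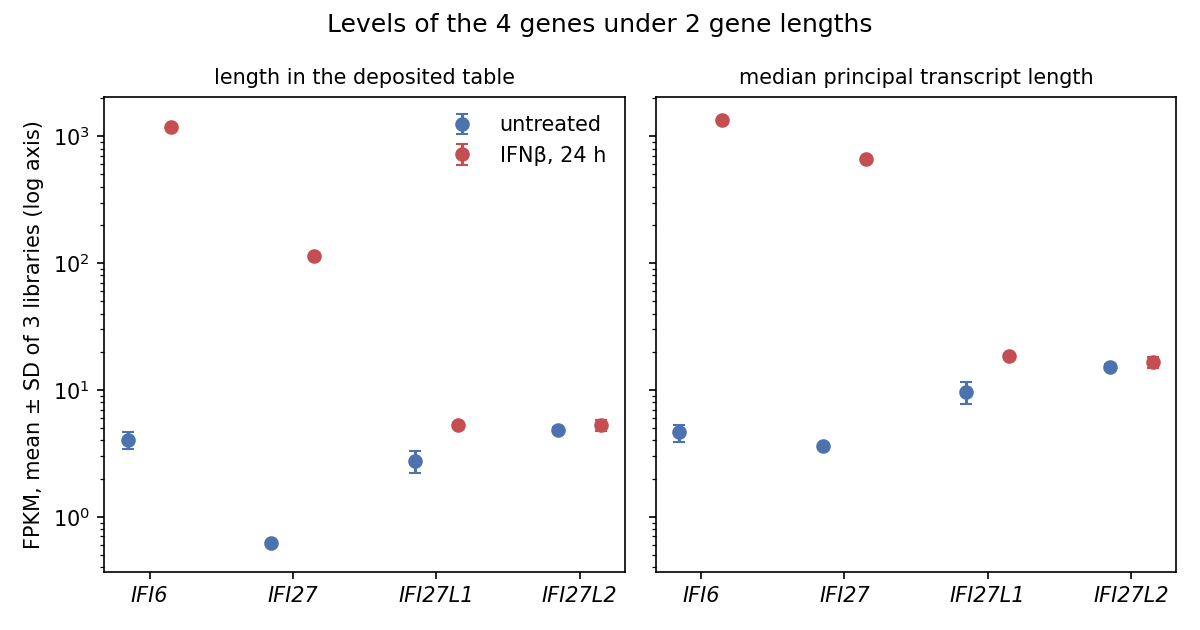
Mean FPKM ± SD of 3 libraries of the 4 genes on a log axis, with the gene length of the deposited table (left) and with the median principal transcript length (right), untreated in blue and IFNβ-treated in red. The treated level of IFI27 moved from 114 to 657 FPKM between the panels, and that of IFI6 from 1174 to 1337 FPKM.

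The spread between libraries differed among the members. The coefficient of variation of IFI27 was 2.48% in untreated and 1.05% in treated cells, where fragment counting alone gives 11.8% and 0.871%. That of IFI6 was 15.2% and 3.84%, against 9.89% and 0.569% from counting. IFI27L1 varied by 19.5% in untreated cells, with 7.47% from counting, and its highest untreated library was 1.48 times its lowest. In treated cells IFI27L1 varied by 3.12%, with 5.34% from counting. IFI27L2 varied by 5.34% in untreated and 10.3% in treated cells, where counting gives 6.84% and 6.49%.

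The pathway upstream of the family responded in part. Of 10 genes of the interferon receptor and its signalling, 5 were called higher and 0 lower, beside 3.49% and 0.739% of all genes tested. The median log2 fold change was 0.77, against 0.00017 over all genes tested. The ISGF3 subunits STAT2 (3.88 ± 0.094 to 40.6 ± 0.781 FPKM, SD, n = 3 per group, log2 fold change 3.35) and IRF9 (2.79) rose. USP18, a feedback inhibitor at IFNAR2, rose by 6.38 and SOCS1, an inhibitor of JAK kinases, by 1.15. The kinases JAK1 (0.38) and TYK2 (0.16) passed the test below the fold threshold, as did the receptor chain IFNAR1, which fell by 0.20 on the log2 scale. IFNAR2 (0.32, limma adjusted p = 0.25) and SOCS3 (-0.071, adjusted p = 0.38) did not pass.

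All 36 interferon-stimulated genes of the list were called higher, with a median log2 fold change of 5.11 and a range from 1.93 in LGALS3BP to 10.68 in BST2. Of these, 6 had a larger log2 fold change than IFI6 and 9 a larger one than IFI27. The level after IFNβ was above that of IFI6 in 1 of them, ISG15, the ubiquitin-like modifier, at 1448 FPKM, and above that of IFI27 in 15. Both counts use the table's lengths, and IFI27 was at 114 FPKM with its table length and at 657 FPKM with its principal transcript length. IFI6 and IFI27 thus lay above the median of the list in fold change, and IFI27L1 and IFI27L2 lay below its lowest member.

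The genes with the profiles most like those of the called members were sought over the 6 libraries among 10185 protein-coding genes with a mean of at least 1 FPKM. The distance was Euclidean, on log2(FPKM + 0.1). By change from the untreated mean, IFI6 was nearest to OAS2, which makes the oligoadenylates that activate RNase L, at a distance of 0.395. IFI44L (0.572), CXCL10 (0.779) and MX2 (0.785) followed, all with at most 8 fragments per untreated library. By level, IFI6 was nearest to ISG15, at 2.43, so that no gene had a closely matching level. IFI27 had a close match in IFIT2, an RNA-binding antiviral protein, at 0.179 by change and 0.16 by level. IFIT2 averaged 0.598 FPKM without and 116 FPKM with IFNβ, beside 0.62 and 114 FPKM for IFI27. The match by level rests on the table's length for IFI27, since on the principal transcript length IFI27 averaged 3.59 and 657 FPKM. The next by change were ISG15 (0.376), IFITM1 (0.425) and SLC15A3 (0.543). SLC15A3 had 1 to 4 fragments per untreated library, so its distance depends on the pseudocount.

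Genes for proteins known to act with the family gave small differences. Of 7 such genes, NR4A3 was under the filter and 0 of the 6 tested were called, where 4.22% of all genes tested were. With 6 genes, 0 is close to that share. The median log2 fold change was 0.12. Under the adjusted p alone 5 passed, where 32.7% of all genes did. HSPA5, the chaperone BiP of the endoplasmic reticulum with which IFI6 associates, rose from 160 ± 2.43 to 211 ± 4.17 FPKM (SD, n = 3 per group), a log2 fold change of 0.40. NR4A2, a nuclear receptor of the NR4A group, rose by 0.59. SKP2, the ubiquitin ligase subunit that works with IFI27, fell by 0.26 on the log2 scale, the exportin XPO1 fell by 0.14 and CIB1, a calcium-binding partner of IFI6, fell by 0.38. NR4A1, the receptor that IFI27 helps export from the nucleus, had 0.32 ± 0.033 and 0.445 ± 0.011 FPKM, a log2 fold change of 0.38 that did not pass (limma adjusted p = 0.11).

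Of 13 genes of mitochondrial apoptosis, the process both called members act on, 2 were called higher and 0 lower, with a median log2 fold change of 0.14. TNFSF10, the death ligand TRAIL, went from 0.015 ± 0.0133 to 12.6 ± 0.209 FPKM, at least 403-fold higher when the untreated level is set to 3 fragments per library. Without untreated replicate 1, and with a pseudocount of 1, the list held 1 call, TNFSF10. Under the adjusted p alone 6 genes rose and 4 fell, where 15.2% of all genes tested rose and 17.5% fell. The pore-forming BAK1 rose by 0.66, while BAX, its counterpart, fell by 0.29 on the log2 scale. Of the inhibitors, BCL2 and MCL1 fell by 0.37 and by 0.21, BCL2L1 rose by 0.16, and XIAP, at -0.032 (limma adjusted p = 0.64), did not pass.

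The chromosomal neighbours were compared because IFI27 lies between its 2 relatives. The 5 protein-coding genes on either side of IFI6 and of the chromosome 14 block were taken, 20 in all. Of these, 11 passed the filter and 1 was called, where 4.22% of all genes tested were. Under the adjusted p alone 7 of the 11 passed, 4 higher and 3 lower, where 32.7% of all genes did. On chromosome 14, OTUB2, a deubiquitinase, fell by 0.34 and PPP4R4, a phosphatase subunit, fell by 0.43 on the log2 scale, while DDX24, a helicase, rose by 0.30, from 27.5 ± 0.773 to 33.8 ± 0.334 FPKM (SD, n = 3 per group). DDX24 and IFI27L1 start 37 bp apart on opposite strands. The other 7 neighbours of the block, 4 of them SERPINA genes, were under the filter in both groups. Thus, along the chromosome, log2 fold changes of 0.30 (DDX24), 0.93 (IFI27L1), 7.30 (IFI27), 0.13 (IFI27L2) and -0.43 (PPP4R4) followed each other.

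Around IFI6, 8 neighbours were tested and 1 was called. THEMIS2, a signalling adaptor 200 kb away, rose from 0.173 ± 0.0349 to 3.62 ± 0.112 FPKM (SD, n = 3 per group), a log2 fold change of 3.78. The others ranged from a log2 fold change of -0.43 in GPR3 to 0.43 in FAM76A. Of the 20 neighbours, 18 had a promoter window, THEMIS2 included, and 0 held an ISRE match, beside 3.71% of all genes. With 18 windows, 0 is close to that share.

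Non-coding genes beside IFI6 were examined after their values had been seen. ENSG00000225886, antisense to IFI6 at chr1:27669468-27703063, had 0 fragments in each untreated library and 427, 341 and 386 after IFNβ, a level of 8.25 ± 0.154 FPKM (SD, n = 3) and at least 126-fold higher against 3 fragments per library. LINC02574 (ENSG00000233975, chr1:27660328-27662722), on the strand of IFI6, had 0, 1 and 0 fragments and then 52, 31 and 42, at least 13.5-fold higher on the same basis. The exons of the antisense gene do not overlap those of IFI6 in release 29. Whether the counting used strand is not stated, so unspliced IFI6 RNA and antisense RNA cannot be told apart here.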

How the data were processed

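RNA of 6 HT1080 libraries was sequenced as paired ends on an Illumina NovaSeq. The authors deposited FPKM for each Ensembl gene and library. Their processing notes name fastp, HISAT2, StringTie and GRCh38, and their methods name DESeq2, while the annotation, the gene lengths and the use of strand are not given in the sources used here. Samples were grouped by the labels.

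FPKM were exact multiples of 1 fragment, so whole fragments were recovered for 100% of the 35303 genes above 0 (tolerance 0.01), 99.73% of each library's divisor. GENCODE release 29 lacks 4436 of the IDs. Pairs of libraries within a group differed beyond counting error.

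Because FPKM are not counts, limma (3.58.1, R 4.3.3; lmFit, eBayes with trend) was run on log2(FPKM + 0.1) over the 20716 genes averaging 0.1 FPKM or more. Python 3.11.15 with pandas 2.3.3, scipy 1.17.1, biopython 1.88 and matplotlib 3.10.9 served the other steps. The procedure was tested on simulated data. Alternatives were other pseudocounts, filters and scalings, eBayes without trend, limma-voom on the fragments, a replicate block, no fold threshold and each library left out, and 2 other length measures for levels compared between members were added after seeing the data.

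The members and lists (receptor and signalling, interferon-stimulated genes, partners, mitochondrial apoptosis, 5 neighbours on either side, 4 genes of nearest profile, cell type markers) were chosen with earlier results of these data known. Genes named are members of these, and the 6 genes ranked above IFI6 and the non-coding genes were added after their values were seen. Some genes of the lists are counted but not reported here by name.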

Additional observations from a re-analysis of the deposited data

How the results depend on the processing

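Over 16 alternatives the log2 fold change of IFI6 stayed between 7.87 and 8.25 and that of IFI27 between 6.14 and 7.50, both called in each, and that of IFI27L2 stayed between 0.047 and 0.19 and uncalled. IFI27L1 stayed between 0.75 and 1.07. Leaving out a library moved it from 0.79 to 1.07, and it was called, at 1.07, only without untreated replicate 1. The other filters, eBayes without trend and the replicate block cannot move a fold change, so they bear on the adjusted p only. Over the 16 alternatives the limma adjusted p lay between 3.6e-21 and 6.8e-06 for IFI6 and between 1.3e-22 and 2.0e-06 for IFI27. For IFI27L1 it lay between 2.0e-07 and 0.013, and for IFI27L2 between 0.14 and 0.63.

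The count of called genes over the whole table depended more on the settings. It was 875 as reported, 304 with a pseudocount of 1, 425 when only genes averaging 1 FPKM or more were tested, 6778 with no fold threshold, 1104 with limma-voom and between 809 and 867 with a library left out. The share of calls that were higher was 82.5%, 73.4% after quantile normalization and 91.4% with a pseudocount of 1. With no fold threshold fewer calls were higher (3153) than lower (3625). With no fold threshold the calls were 8 of 10 in signalling and 5 of 6 among the partners tested. They were 10 of 13 in apoptosis and 7 of 11 among the neighbours tested, beside 32.7% of all genes. The signalling list had 5 calls as reported, and 4 with a pseudocount of 1 or when only genes averaging 1 FPKM or more were tested. The apoptosis list had 1 call with a pseudocount of 1, and 1 to 2 with a library left out. The difference in the log2 ratio of IFI6 to IFI27 lay between 0.74 and 0.96 with a library left out, where the smallest exact p is 0.20. The treated level of IFI6 was 2.03 times that of IFI27 on principal lengths and 2.33 times in fragments. The treated shares of the family, 90.4%, 8.75%, 0.408% and 0.407% for IFI6, IFI27, IFI27L1 and IFI27L2, were 65.9%, 32.4%, 0.909% and 0.816% on principal lengths and 69.1%, 29.6%, 0.785% and 0.532% in fragments.

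With the replicate number as a block, 829 genes were called. The log2 fold changes stayed at 8.15, 7.30, 0.93 and 0.13 for IFI6, IFI27, IFI27L1 and IFI27L2. A block cannot move them where each number occurs once per group. The limma adjusted p were then 6.8e-06, 2.0e-06, 0.01 and 0.14. The deviations of same-numbered libraries correlated at 0.0532, -0.0183 and 0.122, so the numbers were not taken to pair the samples, and not every library correlated best with its own number. Depth limits the untreated level of IFI27, which rests on 58 to 87 fragments.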
